A study of Mus musculus with 12 samples.

Results

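The genes described here are 10 that encode chemokines and cytokines which melanoma cells can release, leaving aside the ligands of CXCR2: Ccl2, Ccl7, Ccl5, Cxcl10, Cxcl16, Cx3cl1, Csf1, Il34, Il6 and Lif. They were taken by gene name, as 10 of the 34513 genes in a count table from RNA-seq of cultured mouse cells. The cells were MelanA, a nontumorigenic line of melanocytes, and the melanoma lines B16F0 and B16F10, of which B16F10 is the more metastatic. Each line was sequenced with no treatment and after SX-682, a small molecule that inhibits the chemokine receptors CXCR1 and CXCR2, with 2 libraries in each of 6 groups. No engineered allele is named for any group, each line is an established line grown alone, and the dose and duration of SX-682 in these cultures are not given in the sources used here. The labels do not say whether the 2 libraries of a group came from separate cultures, so the p-values below measure the spread between those libraries, which may be technical. The comparisons ask what each line transcribes of these signals when untreated, and what changes with the inhibitor in cells grown without stroma or immune cells.

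Chemokines are small secreted proteins that bind receptors coupled to G proteins on leukocytes and set the direction in which those cells move. CCL2 and CCL7 draw monocytes, CCL5 and CXCL10 draw T cells, and CXCL16 and CX3CL1 are made as membrane proteins from which proteases shed a soluble form. CSF1 and IL-34 share the receptor CSF1R and keep macrophages alive, while IL-6 and LIF signal through gp130 (Il6st) to JAK kinases and STAT3.

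Library totals ran from 48876982 to 85322092 counts, and levels are given as CPM, the counts per 1000000 counts of a library after scaling by the trimmed mean of M-values. All 10 genes passed the filter on low counts, but not with equal ease: Csf1, Cxcl10, Cx3cl1, Ccl5 and Lif were over the filter's level of 0.149 CPM in all 12 libraries, while Ccl7 was over it in 5 libraries and Il6 in 4. A gene that passes through 1 line had to differ between lines, so the counts of genes below are given as description. A level resting on 3 counts per library or fewer (0.033 to 0.0623 CPM, depending on the library) was treated as at the floor. Of 8 melanocyte markers, 7 were over 1 CPM in MelanA and 8 in both B16 lines, and their summed level was 1350 to 1380 CPM in untreated MelanA libraries against 19300 to 19400 in B16F0 and 25100 to 25200 in B16F10. With SX-682 that sum was 1350 to 1360 CPM in MelanA, 16200 to 16400 in B16F0 and 15300 to 15500 in B16F10. Tyr, the tyrosinase of pigment synthesis, was at 0.826 CPM in untreated MelanA, 515 in B16F0 and 68.1 in B16F10. Sox10 was the only 1 of the 8 markers that was higher in untreated MelanA, at 670 CPM against 453 in B16F0 and 586 in B16F10. Fibroblast markers (6 genes) summed to 113 to 115 CPM in untreated MelanA, 13.7 to 14.3 CPM in B16F0 and 3.93 to 3.94 CPM in B16F10, and with SX-682 to 93.4 to 94.6, 13.6 to 15.2 and 5.18 to 5.88 CPM. The leukocyte markers found in the table (9 of 10) summed to 25.2 to 25.4 CPM in untreated MelanA and 51.2 to 52.5 CPM with SX-682, where Cd68 went from 16 to 44.6 CPM. Their sum was 10.4 to 12.3 CPM in untreated B16F0 against 14.3 to 16.5 with SX-682, and 26 to 27.2 against 24.8 to 25.6 CPM in B16F10. Ptprc, the pan-leukocyte CD45 gene, was at most 0.155 CPM in any group. The part of other cells in the differences below was not tested, and in bulk RNA fewer cells of a type and less RNA per cell cannot be told apart.

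In untreated cells the 3 lines made different mixtures of these signals. Compared per kilobase of exon (RPKM), the most abundant of the 10 transcripts was Csf1 in MelanA at 27.6, Cxcl10 in B16F0 at 16 and Ccl2 in B16F10 at 348. The levels per kilobase in MelanA were 23.4 RPKM for Ccl5, 20.4 for Cxcl10 and 20 for Cx3cl1, next to 3.08 for Lif and under 1 for the remaining 5 genes. In B16F10, Ccl2 ranked 126 among the 22329 genes with any count, and the next of the group, Cxcl10, was at 30.0 RPKM. Between untreated B16F0 and MelanA, 9 of the 10 genes passed edgeR's quasi-likelihood test at an adjusted p of 0.05, all of them lower in B16F0 and 1 of them, Ccl7, at the floor in both lines; over all genes tested 75.9% passed and 40.6% were lower. Between B16F10 and MelanA, 9 passed, 3 higher and 6 lower, against 74.2% of all genes, 33.4% higher and 40.8% lower. B16F10 and B16F0 differed in 8, with 6 higher in B16F10 and 2 lower, against 62.0% of all genes, 30.8% higher and 31.2% lower. The median log2 difference over the genes given a ratio or bound was -1.28 for B16F0 against MelanA (9 genes), -1.04 for B16F10 against MelanA (10 genes) and 0.40 for B16F10 against B16F0 (9 genes), where the medians over all genes were -0.06, -0.10 and 0. The libraries of the lines did not overlap for 10, 10 and 8 of the genes in these comparisons, against 87.4%, 85.6% and 77.0% of all genes.

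**Figure D1:**
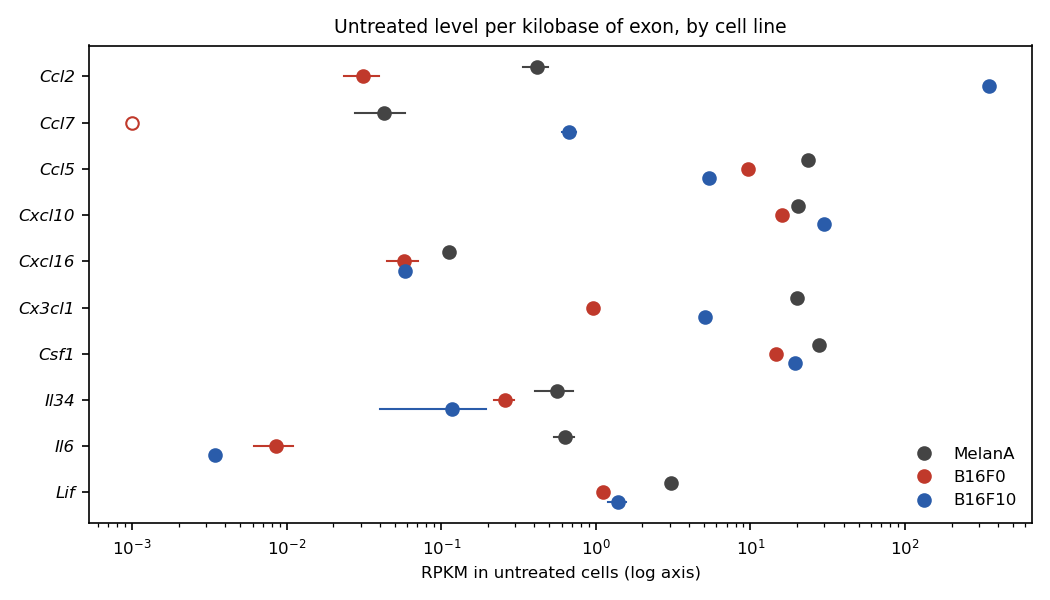
Untreated level of each gene in RPKM (horizontal axis, log scale) in MelanA, B16F0 and B16F10; points are means of 2 libraries, lines join the 2 libraries where both have counts, and the open point at the left edge stands for 0 counts. Ccl2 in B16F10 (348) lies apart from every other point, and the points of Ccl5, Cxcl16, Cx3cl1, Csf1, Il34, Il6 and Lif are highest in MelanA.

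With SX-682 the number of the 10 genes that passed the test was 7 in MelanA (3 higher, 4 lower), 6 in B16F0 (5 higher, 1 lower) and 7 in B16F10 (4 higher, 3 lower). The 5 that were higher in B16F0 include Ccl7, which was at the floor in both groups. These shares stand against 48.2% of all genes in MelanA (23.4% higher, 24.7% lower), 50.1% in B16F0 (25.1% higher, 25.0% lower) and 50.8% in B16F10 (25.5% higher, 25.3% lower). The median log2 change over the genes given a ratio was 0 in MelanA (10 genes), 0.49 in B16F0 (9 genes) and 0.29 in B16F10 (9 genes), against 0 over all genes in each line. The libraries of control and SX-682 did not overlap for 10 of the genes in MelanA, 8 in B16F0 and 8 in B16F10, where 72.7%, 70.4% and 69.4% of all genes did not overlap. Among changes that did not rest on a group at the floor, the largest were rises of Csf1 in B16F0 (2.46-fold) and of Il6 in MelanA (1.81-fold) and falls of Ccl2 in B16F10 (1.80-fold) and MelanA (1.75-fold). Ccl5 was the only one of the 10 that passed in all 3 lines in 1 direction, upward, while Cxcl10, Cx3cl1 and Csf1 passed in all 3 lines with directions that differed. Over all genes, 28.0% passed in all 3 lines and 4.93% did so with directions that differed.

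**Figure D2:**
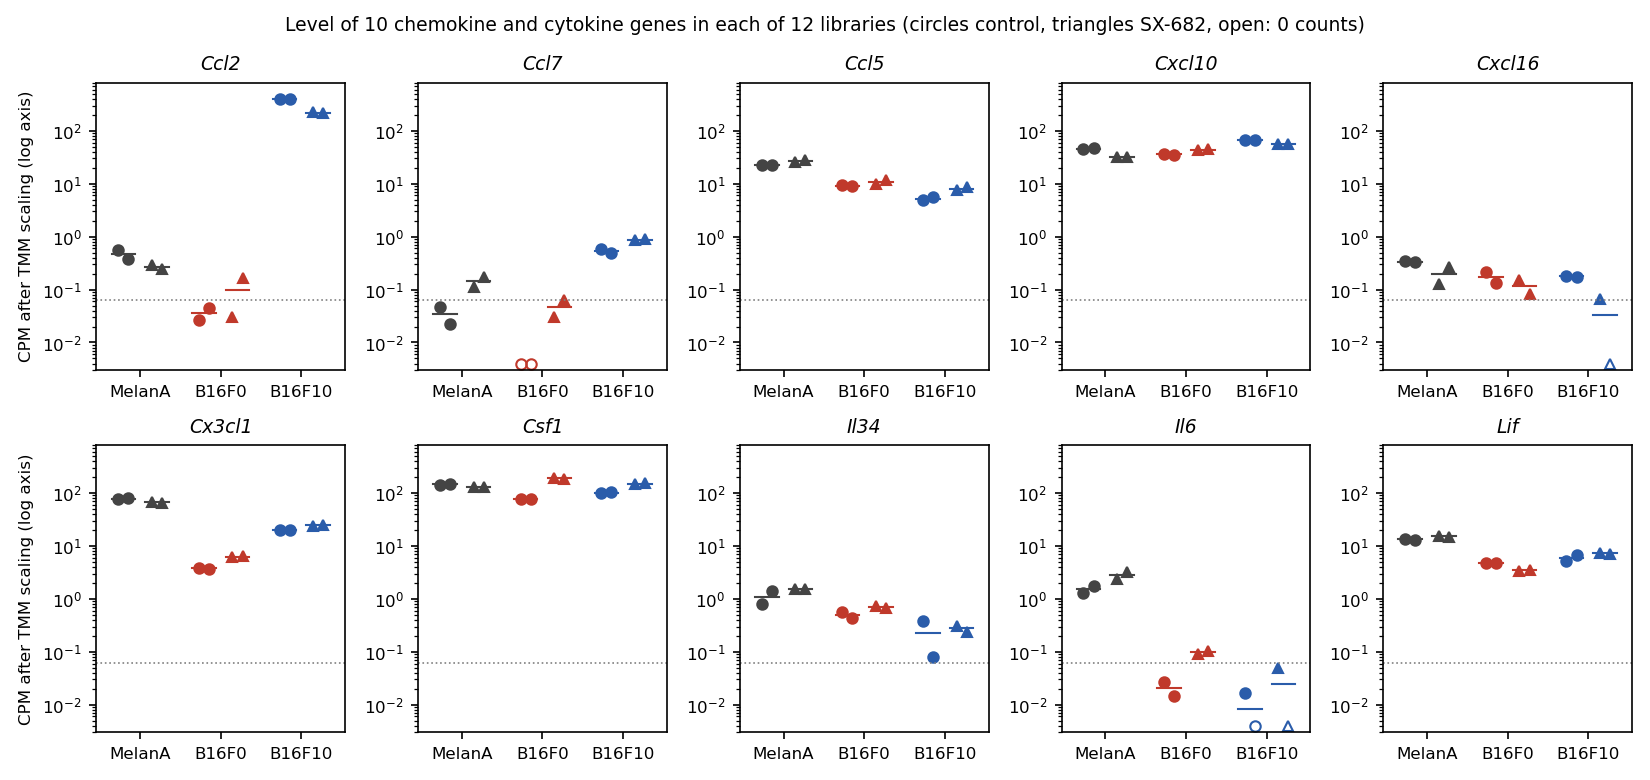
Level of each gene in each of the 12 libraries, in CPM on a log axis, for MelanA, B16F0 and B16F10; circles are control and triangles SX-682 libraries, bars are means of 2, open symbols at the bottom are 0 counts and the dotted line is the highest level that 3 counts give (0.0623 CPM). Ccl2 spans from under the dotted line in B16F0 to about 396 CPM in B16F10, while Cxcl10 and Csf1 stay over 30 CPM in every library.

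Ccl2 encodes the ligand of CCR2 that draws monocytes into tissue (GRCm38 chr11:82035571-82037453, plus strand, ENSMUSG00000035385.5). Its counts in untreated B16F10 were 23825 and 25435, or 394 and 398 CPM. Untreated MelanA had 48 and 35 counts, or 0.556 and 0.385 CPM, and untreated B16F0 had 2 and 3 counts. The 3 lines did not overlap, and B16F0 lay at the floor. B16F10 was 842-fold over MelanA (log2 difference 9.72 ± 0.069 SE, edgeR adjusted p = 2e-38). The fitted log2 difference of untreated B16F10 from untreated B16F0 ranked 8 of 18338 genes in the upward direction. Against B16F0 the ratio of depth-scaled counts was 11300, with a 95% counting interval of 4820 to 34700, and MelanA exceeded B16F0 by a ratio of 13.3 (5.48 to 42.1; edgeR adjusted p = 2.7e-08).

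With SX-682, Ccl2 fell in B16F10 to 13476 and 12758 counts, or 222 and 218 CPM. Both treated libraries lay under both controls, and the fall was 1.80-fold (log2 change -0.85 ± 0.034 SE, edgeR adjusted p = 6.1e-19). At 220 ± 2.89 CPM (SD, n = 2) the transcript was still at rank 235 per kilobase. In MelanA it went to 21 and 18 counts, or 0.295 and 0.240 CPM, a log2 change of -0.81 ± 0.28 SE (edgeR adjusted p = 0.017). That call rests on few counts: without control replicate 1 the change was -0.53 (adjusted p = 0.22), and without SX-682 replicate 2 it was -0.67 (adjusted p = 0.13). In B16F0 the treated libraries held 2 and 8 counts and overlapped the controls, a ratio of 2.49 (0.777 to 9.3; edgeR adjusted p = 0.17), and without SX-682 replicate 1 the log2 change was 2.18 (adjusted p = 0.016).

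Ccl7, whose product binds CCR1, CCR2 and CCR3 on monocytes, lies 10.1 kb downstream of Ccl2 (chr11:82045712-82047525, plus strand, ENSMUSG00000035373.2). It had 36 and 31 counts in untreated B16F10, 4 and 2 in untreated MelanA and none in either untreated B16F0 library. B16F10 was therefore the highest line for Ccl7 as it was for Ccl2, at 0.540 ± 0.0780 CPM (SD, n = 2), at least 12.8-fold over B16F0 against a floor of 3 counts per library and 15.9 times MelanA (6.94 to 44.9). Ccl7 passed the filter mainly through the B16F10 libraries, so these differences between lines are given without a p-value. With SX-682 the counts were 53 and 52 in B16F10, both over the controls, with a log2 change of 0.71 ± 0.47 SE that did not pass (95% interval -0.26 to 1.68, edgeR adjusted p = 0.23).

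In MelanA, Ccl7 rose to 8 and 13 counts with SX-682, a ratio of 4.24 with a counting interval of 1.65 to 12.8 (edgeR adjusted p = 0.026), against controls at the floor. Without SX-682 replicate 2 the adjusted p was 0.17, and without control replicate 2 it was 0.16. In B16F0 the treated libraries held 2 and 3 counts against 0 and 0. That difference passed the test (edgeR adjusted p = 0.029), but both groups were at or under the floor and no fold is given. In B16F10, then, Ccl2 fell while its neighbour gave 0.71, and in MelanA Ccl2 fell while Ccl7 rose.

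The other genes of the count table that lie wholly within 500 kb of Ccl2, looked up after the values of Ccl2 were seen, were near 0. The noncoding genes Gm31522 (at -52.5 kb, with 3 and 4 counts in untreated B16F10) and Gm11419 (at -50.2 kb, with 4 and 10 counts) had no count in any MelanA or B16F0 library. Ccl8, 79.6 kb downstream, had 21 and 5 counts in untreated B16F10 and 5 and 14 with SX-682. Ccl1 and Tmem132e, further downstream, were at 0 in all B16 libraries. Among these genes Ccl2 was thus the only one over 1 CPM in B16F10. Genes absent from the count table or only partly inside the interval were not looked at.

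**Figure D3:**
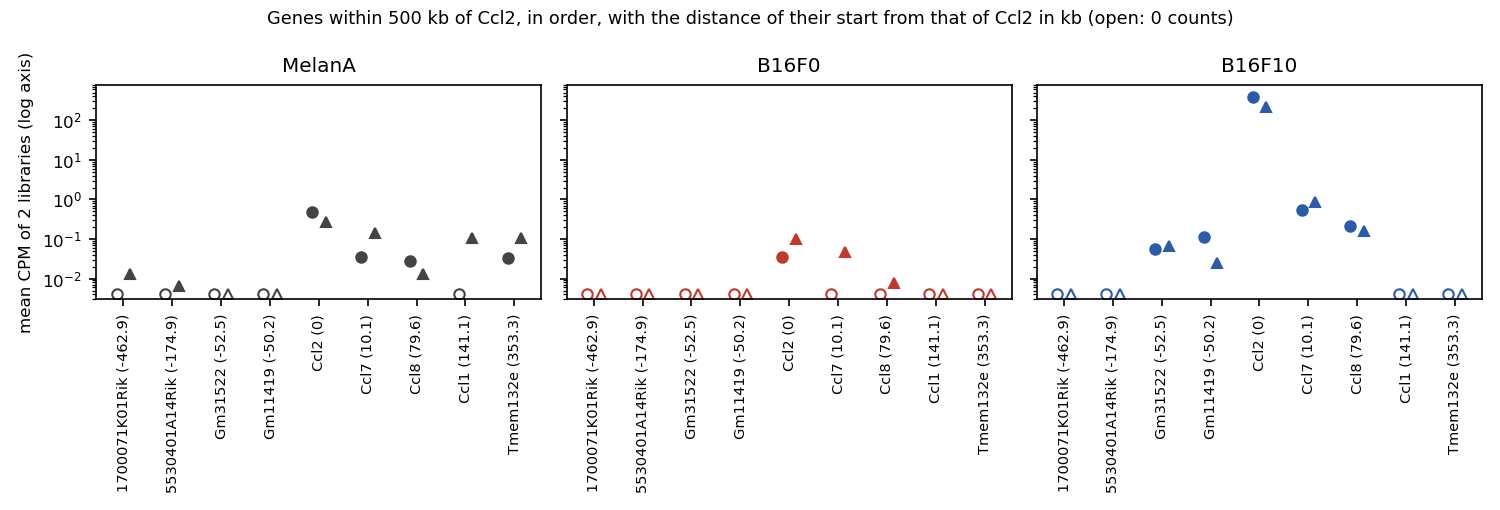
Mean level of 2 libraries, in CPM on a log axis, of the 9 genes of the count table that lie wholly within 500 kb of Ccl2. They are in chromosome order with the distance of starts in kb, for each line. Circles are control, triangles SX-682 and open symbols 0 counts. In B16F10, Ccl2 stands at 396 and 220 CPM with Ccl7 at 0.540 and 0.882 CPM, and every other gene is under 0.3 CPM.

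Ccl5 encodes a ligand of CCR1 and CCR3 that recruits T cells and monocytes (chr11:83525778-83530518, minus strand, ENSMUSG00000035042.2). Where Ccl2 was highest in B16F10, Ccl5 was lowest there: untreated MelanA libraries were at 22.4 and 22.5 CPM, B16F0 at 9.53 and 8.91 and B16F10 at 4.86 and 5.54. No line overlapped another, and B16F0 was 2.43-fold and B16F10 4.31-fold under MelanA (log2 differences -1.28 and -2.11, edgeR adjusted p = 7.7e-15 and 4.6e-19).

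With SX-682, Ccl5 rose in each line. In B16F10 the treated libraries were at 7.47 and 8.55 CPM, over both controls, a rise of 1.54-fold (log2 change 0.62 ± 0.10 SE, edgeR adjusted p = 5.4e-06). The rises were smaller in MelanA, to 25.4 and 27.5 CPM (0.24 ± 0.073, adjusted p = 0.0076), and in B16F0, to 10 and 11.6 CPM (0.22 ± 0.089, adjusted p = 0.041). Both depended on single libraries. The B16F0 rise also missed the threshold without the expression filter (edgeR adjusted p = 0.062) and when scaled by library totals (adjusted p = 0.055). In MelanA the change was 0.18 (adjusted p = 0.14) without SX-682 replicate 2, and in B16F0 it was 0.17 (adjusted p = 0.21) without control replicate 2 and 0.12 (adjusted p = 0.39) without SX-682 replicate 2.

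Cxcl10 encodes an interferon-induced ligand of CXCR3, the receptor of effector T cells (chr5:92346638-92348889, minus strand, ENSMUSG00000034855.13). Untreated libraries were at 45.4 and 46.6 CPM in MelanA, 36.7 and 35.4 in B16F0 and 67.4 and 67.9 in B16F10. The lines did not overlap, and B16F10 was 1.88-fold over B16F0 (log2 difference 0.91 ± 0.042 SE, edgeR adjusted p = 8.1e-18) and 1.47-fold over MelanA (adjusted p = 2.2e-13).

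The change of Cxcl10 with SX-682 took opposite directions. It fell in MelanA to 31.4 and 32.2 CPM (log2 change -0.53 ± 0.042 SE, edgeR adjusted p = 6.7e-12) and in B16F10 to 56.2 and 56.0 CPM (-0.27 ± 0.041, adjusted p = 1.4e-06), and it rose in B16F0 to 42.9 and 44.9 CPM (0.28 ± 0.043, adjusted p = 2.2e-06). In no line did treated and control libraries overlap, and the order of the 6 groups, B16F10 control, B16F10 with SX-682, MelanA control, B16F0 with SX-682, B16F0 control and MelanA with SX-682, had no neighbours that overlapped. Of the exon bases of Cxcl10, 5.91% are shared with Art3 on the other strand, and whether strand was used in counting is not given in the sources used here. Art3 fell with SX-682 in MelanA (log2 change -0.63), B16F0 (-0.58) and B16F10 (-1.09), so it moved with Cxcl10 in MelanA and B16F10 and against it in B16F0. Its part in the counts of Cxcl10 was not tested.

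Cxcl16 encodes a membrane-bound ligand of CXCR6 (chr11:70453983-70459984, minus strand, ENSMUSG00000018920.11), and its transcript was rare in all lines. Counts in untreated cells were 30 and 30 in MelanA, 16 and 9 in B16F0 and 11 and 11 in B16F10. MelanA was the highest, but no pair of lines differed by the test: the log2 difference from MelanA was -0.95 for B16F0 (95% interval -2.22 to 0.32, edgeR adjusted p = 0.17) and -0.93 for B16F10 (-2.22 to 0.36, adjusted p = 0.19). With SX-682 there were 9 and 20 counts in MelanA (log2 change -0.78 ± 0.61 SE, adjusted p = 0.32) and 10 and 4 in B16F0 (-0.53 ± 0.73, adjusted p = 0.60).

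In B16F10, Cxcl16 fell to 4 and 0 counts, a ratio of 5.27 with an interval of 1.79 to 21.0 (edgeR adjusted p = 0.032). Without SX-682 replicate 2, the library at 0, the log2 change was -1.40 (adjusted p = 0.24), and without either control it was -2.30 or -2.38 (adjusted p = 0.080 and 0.069). Cxcl16 shares 18.3% of its exon bases with Zmynd15 on the other strand, which had at most 16 counts in a library.

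Cx3cl1 encodes fractalkine, a chemokine on a membrane-anchored stalk that binds CX3CR1 on monocytes, NK cells and microglia (chr8:94772009-94782427, plus strand, ENSMUSG00000031778.13). Untreated MelanA libraries were at 76.1 and 81.1 CPM, B16F10 at 20.1 and 20.1 and B16F0 at 3.88 and 3.66. No lines overlapped. B16F0 was 20.8-fold and B16F10 3.91-fold under MelanA (log2 differences -4.38 ± 0.063 and -1.97 ± 0.050 SE, edgeR adjusted p = 6.8e-31 and 1.3e-24), and B16F10 was 5.32-fold over B16F0.

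With SX-682, Cx3cl1 fell in the line where it was highest and rose in the others. It went to 68.6 and 65.6 CPM in MelanA (log2 change -0.23 ± 0.044 SE, edgeR adjusted p = 6.9e-05), to 6.12 and 6.38 CPM in B16F0 (0.72 ± 0.090, adjusted p = 5.8e-08) and to 24.3 and 25.4 CPM in B16F10 (0.31 ± 0.055, adjusted p = 2.4e-05). Treated and control libraries did not overlap in any line, and the order of the lines, MelanA over B16F10 over B16F0, was the same with and without SX-682.

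Csf1 encodes macrophage colony-stimulating factor, on which most tissue macrophages depend (chr3:107741048-107760469, minus strand, ENSMUSG00000014599.10). Untreated libraries were at 140 and 151 CPM in MelanA, 101 and 103 in B16F10 and 76.5 and 77.5 in B16F0. The lines did not overlap, with B16F0 1.89-fold and B16F10 1.43-fold under MelanA (edgeR adjusted p = 1.2e-20 and 1.5e-14).

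The order of the lines was reversed with SX-682. In B16F0, Csf1 rose to 192 and 187 CPM, from 77.0 ± 0.694 to 190 ± 3.35 CPM (SD, n = 2), which is 2.46-fold (log2 change 1.30 ± 0.034 SE, edgeR adjusted p = 3.9e-23). In B16F10 it rose to 148 and 153 CPM, by 1.48-fold (0.57 ± 0.034, adjusted p = 8.8e-15). In MelanA it fell to 128 and 132 CPM (-0.17 ± 0.033, adjusted p = 7.9e-05), with both treated libraries under both controls. With SX-682 B16F0 was thus the highest group of all 6 and MelanA the lowest of the 3 treated ones. Only B16F10 with SX-682 and untreated MelanA overlapped among neighbours in that order.

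Cxcl10, Csf1 and Cx3cl1 were the 3 genes that passed in every line with directions that differed, and the 250 bases before their RefSeq starts are shown for that reason (RefSeq, GRCm38.p6; given on the gene's own strand, 5′ to 3′). The capitals mark matches, on either strand, to the NF-kappaB letters (GGGA and CC with any 4 bases between them), the letters of the interferon-stimulated response element or ISRE (GAAA and GAAA with any 2 bases between them) or the AP-1 letters TGANTCA. Overlapping matches are run together. The regions are chr5:92348890-92349139 (minus) for Cxcl10, chr3:107760470-107760719 (minus) for Csf1 and chr8:94771930-94772179 (plus) for Cx3cl1.
Cxcl10: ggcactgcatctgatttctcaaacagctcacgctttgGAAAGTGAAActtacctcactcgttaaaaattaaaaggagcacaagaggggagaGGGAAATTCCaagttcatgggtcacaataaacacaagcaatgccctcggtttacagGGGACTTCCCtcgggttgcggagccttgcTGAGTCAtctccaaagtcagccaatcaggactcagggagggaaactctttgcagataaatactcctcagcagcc
Csf1: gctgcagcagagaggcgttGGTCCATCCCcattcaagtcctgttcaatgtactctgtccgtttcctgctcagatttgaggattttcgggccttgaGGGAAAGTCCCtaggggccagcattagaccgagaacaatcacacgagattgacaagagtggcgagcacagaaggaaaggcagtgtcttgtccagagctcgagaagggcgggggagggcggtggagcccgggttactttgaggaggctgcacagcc
Cx3cl1: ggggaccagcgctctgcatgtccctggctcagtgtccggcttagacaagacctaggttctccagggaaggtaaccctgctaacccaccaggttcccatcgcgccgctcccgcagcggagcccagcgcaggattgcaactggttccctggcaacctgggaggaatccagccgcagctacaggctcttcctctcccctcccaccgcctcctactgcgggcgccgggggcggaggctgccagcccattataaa
The Cxcl10 window holds an ISRE match at 213 to 204 bases before the start, NF-kappaB matches at 159 to 150 and 103 to 94, and an AP-1 match at 74 to 68. The Csf1 window holds NF-kappaB matches at 231 to 222 and, overlapping each other on opposite strands, at 155 to 146 and 154 to 145. None of these letters, nor the C/EBP-ATF letters TGATGCAA, are in the Cx3cl1 window. That window reaches past the start of the gene as counted here (94772009), since its RefSeq start lies further downstream. The Cxcl10 and Csf1 windows end next to the starts of the genes as counted. Among 32851 windows of this length before RefSeq starts, 17.6% held the NF-kappaB letters, 2.98% the ISRE letters, 6.75% the AP-1 letters and 0.791% the C/EBP-ATF letters. A match describes the sequence and does not show that a factor binds there. Windows were found for 5 of the 10 genes. Besides these 3 they were Il6 (an NF-kappaB match on either strand and an AP-1 match) and Lif (1 NF-kappaB and 1 AP-1 match).

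Il34 encodes the other ligand of CSF1R, best known from skin and brain, where it maintains Langerhans cells and microglia (chr8:110741829-110805924, minus strand, ENSMUSG00000031750.15). Its counts were 68 and 127 in untreated MelanA, 43 and 29 in B16F0 and 23 and 5 in B16F10. MelanA was highest in each comparison, and the 2 B16F10 controls differed more from each other, as a ratio, than any other pair. The log2 difference from MelanA was -2.26 ± 0.43 SE for B16F10 (edgeR adjusted p = 3e-05) and -1.11 ± 0.38 for B16F0 (adjusted p = 0.0091). The latter was -0.64 (adjusted p = 0.21) without MelanA control replicate 2, -0.93 (adjusted p = 0.081) without B16F0 control replicate 2 and -0.76 (adjusted p = 0.12) when replicate numbers entered the fit as a block. The difference of B16F10 from B16F0, -1.15 (edgeR adjusted p = 0.035), was -0.41 without B16F10 control replicate 2, -0.92 without B16F0 control replicate 1 and -0.83 (adjusted p = 0.17) with the block. Of the exon bases of Il34, 3.83% are shared with Gm15895 and 1.12% with Gm15894, both on the other strand. Gm15894 had 36 and 24 counts in untreated MelanA, 7 and 5 in B16F0 and 0 and 0 in B16F10. Gm15895 had at most 2 counts in any library. Their part in the counts of Il34 was not tested.

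With SX-682, Il34 had 108 and 117 counts in MelanA, 48 and 33 in B16F0 and 19 and 14 in B16F10. The log2 changes of 0.49, 0.49 and 0.29 did not pass (edgeR adjusted p = 0.26, 0.34 and 0.70), with 95% intervals of -0.21 to 1.19, -0.34 to 1.32 and -0.79 to 1.36. Without B16F10 control replicate 1, the library with 23 counts, the B16F10 change was 1.80 (adjusted p = 0.038). Il34 was the only one of the 10 that passed in no line. Per kilobase it lay far under Csf1, the other ligand of that receptor, at 0.558 RPKM against 27.6 in untreated MelanA and 0.117 against 19.3 in B16F10.

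Il6 encodes interleukin 6, which signals through Il6ra and gp130 (chr5:30013114-30019981, plus strand, ENSMUSG00000025746.11). It was a MelanA transcript in these data: untreated MelanA had 112 and 160 counts, against 2 and 1 in B16F0 and 1 and 0 in B16F10. Both B16 lines lay at the floor, with MelanA over B16F0 by a ratio of 72.7 (24.6 to 355) and over B16F10 by 191 (34.0 to 7570). The filter was passed through MelanA alone, so a difference between the lines had to appear and is given without a p-value.

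With SX-682, Il6 rose in MelanA to 168 and 240 counts, or 2.36 and 3.20 CPM from 1.30 and 1.76, with no overlap (log2 change 0.86 ± 0.29 SE, edgeR adjusted p = 0.015). Without SX-682 replicate 2 the change was 0.62 (adjusted p = 0.24), and without control replicate 1 it was 0.66 (adjusted p = 0.17). B16F0 had 6 and 5 treated counts, a ratio of 4.57 (1.21 to 25.5; adjusted p = 0.055, and 0.046 in the fit with replicate blocks). B16F10 had 3 and 0 counts, and both of its groups were under the floor.

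Lif encodes leukemia inhibitory factor, which acts through Lifr and gp130 (chr11:4257557-4272514, plus strand, ENSMUSG00000034394.14). Untreated libraries were at 13.6 and 13.2 CPM in MelanA, 4.83 and 4.79 in B16F0 and 5.21 and 6.82 in B16F10. MelanA was 2.78-fold over B16F0 and 2.22-fold over B16F10 (edgeR adjusted p = 6.1e-14 and 1.5e-11). B16F10 exceeded B16F0 by 0.32 on the log2 scale (adjusted p = 0.013), which was 0.11 (adjusted p = 0.46) without B16F10 control replicate 2, 0.32 (adjusted p = 0.050) without B16F0 control replicate 2, 0.26 (adjusted p = 0.13) with the block and 0.23 (adjusted p = 0.074) scaled by library totals.

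With SX-682, Lif fell in B16F0 to 3.34 and 3.57 CPM (log2 change -0.48 ± 0.12 SE, edgeR adjusted p = 0.0015), under both controls. In B16F10 it went to 7.52 and 7.16 CPM (0.29 ± 0.11, adjusted p = 0.029). That rise was 0.11 (adjusted p = 0.50) without control replicate 1, 0.25 (adjusted p = 0.14) without SX-682 replicate 1 and 0.28 (adjusted p = 0.061) in DESeq2. In MelanA it was at 15.5 and 14.9 CPM (0.18 ± 0.090, adjusted p = 0.099). Lif and Il6, both ligands of gp130 receptors, were thus both highest in MelanA. Lif was the only one of the 10 whose fall in B16F0 passed the test.

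**Figure D4:**
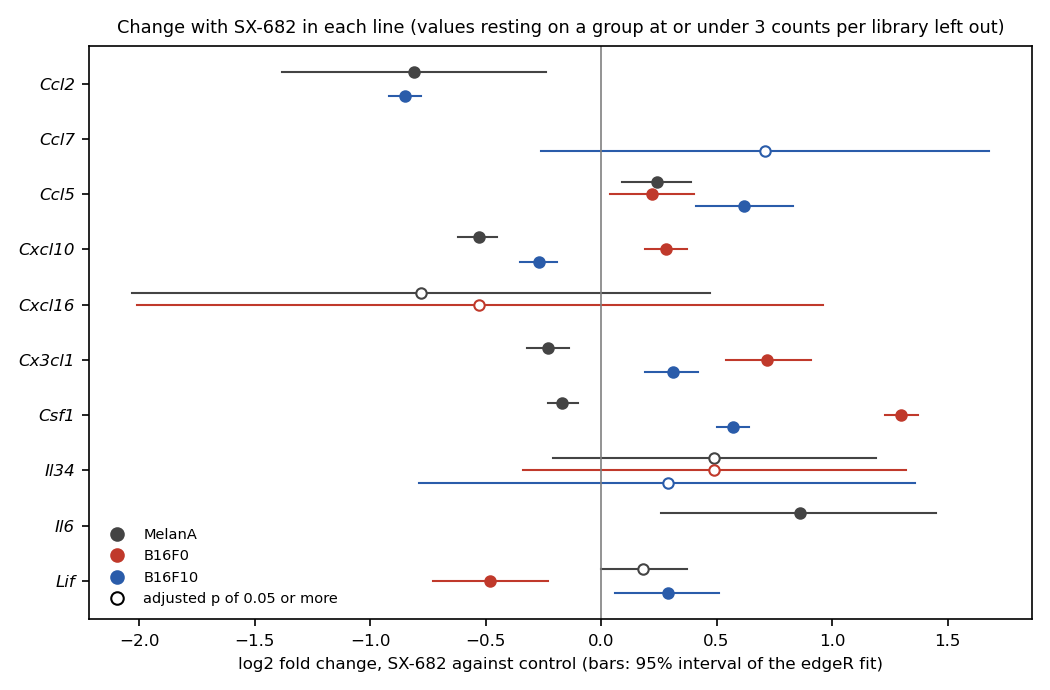
Log2 change with SX-682 (horizontal axis) of each gene in MelanA, B16F0 and B16F10; points are edgeR estimates from 2 against 2 libraries, bars are 95% intervals, open points have an adjusted p of 0.05 or more, and values that rest on a group at 3 counts per library or fewer are left out. Csf1 in B16F0 (1.30) lies farthest right of the filled points, Ccl2 lies left of 0 in MelanA (-0.81) and B16F10 (-0.85), and Cxcl10, Cx3cl1 and Csf1 have points on both sides of 0.

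The change with SX-682 was then compared between lines directly. Of the 10 genes, 5 differed among the 3 lines by an F-test on the interaction terms, against 47.4% of all genes: Csf1, with log2 changes spanning 1.47 (edgeR adjusted p = 7.9e-20), Cx3cl1 with 0.95 (adjusted p = 1.7e-09), Cxcl10 with 0.82 (adjusted p = 1.1e-11), Lif with 0.77 (adjusted p = 0.00044) and Ccl5 with 0.40 (adjusted p = 0.021). The span of Ccl5 was 0.31 (adjusted p = 0.18) without B16F10 control replicate 1 and 0.30 (adjusted p = 0.19) without B16F10 SX-682 replicate 2. Ccl2, whose B16F0 libraries were near the floor, did not pass (adjusted p = 0.066), but did in the fit with replicate blocks (adjusted p = 0.030) and in DESeq2 (adjusted p = 0.038). The difference between the mean B16 change and the MelanA change passed for 3 genes, against 35.8% of all genes, each time upward: 1.10 for Csf1 (adjusted p = 4.5e-19), 0.74 for Cx3cl1 (adjusted p = 4.6e-10) and 0.54 for Cxcl10 (adjusted p = 8.9e-10). For Cxcl10 that mean joins a rise in B16F0 with a fall in B16F10.

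Receptors of IL-6 and LIF were transcribed in all 3 lines, and of the leukocyte receptors of these ligands Cxcr3 and Csf1r were over 1 CPM in 1 untreated line each. Of 15 receptor genes, 14 were in the table and 8 passed the filter. Ccr1, Ccr2, Ccr3, Cxcr6 and Cx3cr1, leukocyte receptors of CCL2, CCL7, CCL5, CXCL16 and CX3CL1, did not pass it, with at most 8 counts in any library. Il6st (gp130) was at 234 CPM in untreated MelanA, 121 in B16F0 and 111 in B16F10. Lifr was at 58.5 CPM in MelanA against 5.31 in B16F0 and 6.98 in B16F10, and Il6ra at 6.21, 1.49 and 2.46 CPM, so both were highest in the line where Lif and Il6 were highest. Csf1r, the receptor of CSF1 and IL-34, had 173 and 184 counts in untreated MelanA (2.01 CPM), 3 and 1 in B16F0 and 7 and 8 in B16F10. It is also one of the leukocyte markers. Relative to MelanA, 7 of the 8 receptor genes were lower and 1 higher in untreated B16F0, and 7 were lower in B16F10, where 40.6% and 40.8% of all genes were lower. Ptprz1, Csf1r and Ackr2 were near 0 in untreated B16 cells and passed the filter through MelanA, so they had to be lower in B16 and nothing is read from these counts.

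With SX-682, 1 of the 8 receptor genes rose and 3 fell in MelanA, 1 rose and 4 fell in B16F0, and 2 rose and 3 fell in B16F10. Among the 4 falls in B16F0 was Ptprz1, with 7 and 0 counts untreated and 0 and 0 with SX-682. That call rests on 1 library (edgeR adjusted p = 0.048) and was lost in DESeq2. Over all genes 23.4%, 25.1% and 25.5% were higher in these lines and 24.7%, 25.0% and 25.3% lower. The median log2 change over receptor genes above the floor was -0.11 (8 genes), -0.16 (4 genes) and -0.36 (6 genes). Lifr followed Lif in direction in the B16 lines, falling in B16F0 (log2 change -0.38, edgeR adjusted p = 0.0023) and rising in B16F10 (0.67, adjusted p = 3.3e-08). Il6ra fell in MelanA (-0.45, adjusted p = 0.012, up to 0.076 without control replicate 1 or either SX-682 library) and B16F10 (-0.90, adjusted p = 0.00018). Il6st rose slightly in all lines, by 0.07 in MelanA (adjusted p = 0.029), 0.18 in B16F0 (adjusted p = 2.1e-06) and 0.07 in B16F10 (adjusted p = 0.043), but the MelanA call was lost without any of its 4 libraries (adjusted p up to 0.15) and the B16F10 call in 10 of 20 alternatives. Cxcr3, the receptor of CXCL10, had 88 and 77 counts in untreated B16F0 and 5 and 0 with SX-682 (adjusted p = 7e-08), and in B16F10 it went from 32 and 40 to 5 and 8 (log2 change -2.38, adjusted p = 0.00031). Sdc1 (syndecan-1), a heparan sulfate proteoglycan that binds IL-34, fell in MelanA (-0.39), B16F0 (-0.18) and B16F10 (-0.58), with adjusted p = 1.8e-12, 1e-05 and 3.4e-16. Ptprz1, another IL-34 receptor, was at 31.8 CPM in untreated MelanA and fell there (-0.29, adjusted p = 0.0074, lost without control replicate 1 or SX-682 replicate 1 and in DESeq2), and it had at most 7 counts in any B16 library.

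**Figure D5:**
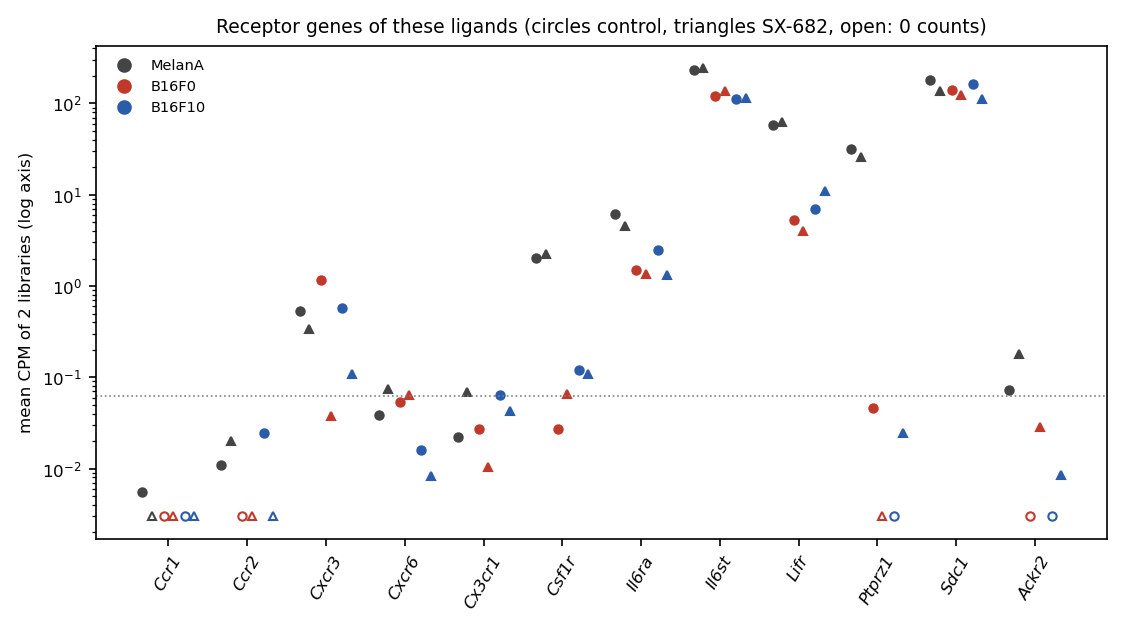
Mean level of 2 libraries, in CPM on a log axis, of the 12 receptor genes with a count in at least 1 untreated library, in MelanA, B16F0 and B16F10; circles are control, triangles SX-682, open symbols 0 counts and the dotted line the highest level that 3 counts give (0.0623 CPM). Il6st and Sdc1 lie over 100 CPM in every group, while Ccr1 and Ccr2 lie under the dotted line throughout.

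Of 9 genes for proteases and their partners that shed or trim these ligands, 7 passed the filter. Of these, 2 rose and 3 fell with SX-682 in MelanA, 3 rose and 2 fell in B16F0, and 3 rose and 3 fell in B16F10. Their median log2 changes were -0.20, -0.04 and -0.03. Over all genes 23.4%, 25.1% and 25.5% were higher in these lines and 24.7%, 25.0% and 25.3% lower. Adam10 and Adam17, the sheddases of CX3CL1 and CXCL16, were at 385 and 70.7 CPM in untreated MelanA. Adam17 fell in MelanA, B16F0 and B16F10 (log2 change -0.20, -0.23 and -0.67, edgeR adjusted p = 6e-05, 6.5e-06 and 5.9e-15), and so did Adam10 (-0.25, -0.20 and -0.15, adjusted p = 3.5e-10, 6.8e-08 and 5e-06). Rhbdf2, which encodes iRhom2, the carrier of ADAM17 to the cell surface, rose in every line (log2 change 0.43, 0.96 and 0.94; adjusted p = 2.8e-10, 1.2e-18 and 1.2e-18). Mmp2, a protease that cuts CCL7, fell in MelanA (-0.51, adjusted p = 1.1e-05) and B16F10 (-0.47, adjusted p = 1e-06) and gave -0.05 in B16F0 (adjusted p = 0.60).

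Among 23 transcription factors and regulators known to act on these genes, 19 rose and 2 fell with SX-682 in MelanA, 17 rose and 3 fell in B16F0, and 15 rose and 4 fell in B16F10, with median log2 changes of 0.48, 0.46 and 0.29 against 0 over all genes. Over all genes 23.4%, 25.1% and 25.5% were higher in these lines. Atf3, a stress-induced factor, rose by 1.72 on the log2 scale in MelanA, 1.60 in B16F0 and 2.08 in B16F10 (edgeR adjusted p = 5.6e-25, 3.4e-23 and 1.4e-26). Irf7, which amplifies interferon responses, rose by 0.80, 1.01 and 1.80 (adjusted p = 2.9e-10, 2.8e-06 and 6.6e-11). Fos, a part of AP-1, rose in MelanA (0.55, adjusted p = 1.4e-08) and B16F0 (0.47, adjusted p = 0.00078) and fell in B16F10 (-1.94, adjusted p = 1.7e-15).

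Of 13 genes of the IL-6 and LIF signal chain and its targets, 9 rose and 2 fell in MelanA, 7 rose and 4 fell in B16F0, and 6 rose and 5 fell in B16F10. Their median log2 changes were 0.28, 0.18 and 0.07. Over all genes 23.4%, 25.1% and 25.5% were higher in these lines and 24.7%, 25.0% and 25.3% lower. Socs3, the feedback inhibitor of gp130, rose in MelanA (log2 change 0.28, edgeR adjusted p = 7.7e-06) and fell in B16F0 (-0.92, adjusted p = 3e-11) and B16F10 (-0.29, adjusted p = 0.00014). The STAT3 targets Junb (1.42, 1.01 and 1.25; adjusted p = 1.8e-22, 1.7e-17 and 1.2e-20) and Pim1 (0.90, 1.01 and 1.62; adjusted p = 3.4e-13, 7.8e-15 and 1.8e-18) rose in all 3 lines.

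The messages of many cytokines are removed by RNA-binding proteins. Of 11 genes for such proteins and their opponents, 1 rose and 8 fell in MelanA, 3 rose and 4 fell in B16F0, and 2 rose and 6 fell in B16F10. Their median log2 changes were -0.31, 0.09 and -0.16. Over all genes 23.4%, 25.1% and 25.5% were higher in these lines and 24.7%, 25.0% and 25.3% lower. Zfp36 (tristetraprolin), which binds AU-rich elements and speeds decay, rose in each line (log2 change 0.76, 1.46 and 1.06; edgeR adjusted p = 1.2e-10, 6.9e-15 and 1.5e-11). Its relative Zfp36l1 fell in MelanA (-0.63, adjusted p = 1.4e-14), rose in B16F0 (0.29, adjusted p = 2.5e-07) and gave 0.03 in B16F10 (adjusted p = 0.54). Tia1, a translational silencer, fell in each line (-0.69, -0.29 and -0.80; adjusted p = 6.5e-15, 3.2e-07 and 4.3e-16).

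Other chemokines that lack the ELR motif, the signature of CXCR2 ligands, were mostly silent: 18 of 23 were in the table and 9 passed the filter. Of these, 3 rose and 1 fell in MelanA, 3 rose in B16F0 and 4 rose in B16F10. Their median log2 changes over those above the floor were 0.30 (8 genes), 0.88 (5 genes) and 0.58 (5 genes). Over all genes 23.4%, 25.1% and 25.5% were higher in these lines and 24.7%, 25.0% and 25.3% lower. Ccl27a, a skin T-cell attractant, rose in B16F10 (log2 change 0.58 ± 0.15 SE, edgeR adjusted p = 0.0019), gave 0.38 in MelanA, where it passed just under the threshold (adjusted p = 0.050) and was lost in 14 of 20 alternatives, and gave -0.25 in B16F0 (adjusted p = 0.23). The genes that rose in every line, named after their values were seen, were Ccl28 and Cxcl11. Ccl28, a ligand of CCR10, had 20 and 20 counts in untreated MelanA and 38 and 33 with SX-682, 55 and 48 against 109 and 47 in B16F0, and 36 and 53 against 162 and 155 in B16F10 (log2 changes 1.10, 0.88 and 1.90, adjusted p = 0.014, 0.016 and 2.3e-06). The B16F0 libraries of Ccl28 overlapped in counts but not in CPM, and the MelanA and B16F0 calls were each lost without any of 3 single libraries (adjusted p up to 0.099 and 0.39). Cxcl11, like Cxcl10 a ligand of CXCR3, had 23 and 29 counts in untreated MelanA and 67 and 78 with SX-682, 11 and 0 against 80 and 41 in B16F0, and 0 and 0 against 25 and 11 in B16F10 (adjusted p = 0.0034, 6.6e-06 and 7.8e-05). Of 28 other secreted cytokines, 27 were in the table and 18 passed the filter. Of these, 6 rose and 3 fell in MelanA, 9 rose and 3 fell in B16F0, and 5 rose and 2 fell in B16F10, with median log2 changes over those above the floor of 0.17 (16 genes), 0.54 (15 genes) and 0.27 (13 genes). The shares over all genes were again 23.4%, 25.1% and 25.5% higher and 24.7%, 25.0% and 25.3% lower. Among the 9 rises in B16F0, Il1rn (2 and 5 counts with SX-682) and Ifnb1 (4 and 3) rested on untreated libraries with 0 and 0 counts. Il11, like Il6 and Lif a ligand of a gp130 receptor, was also a MelanA transcript, at 41.4 CPM against 0.217 in B16F0 and 0.183 in B16F10. It rose in MelanA (0.86, adjusted p = 6.1e-14) and B16F0 (2.26, adjusted p = 1.8e-08), with 0.58 in B16F10 (adjusted p = 0.23). Clcf1, another gp130 ligand, rose in B16F0 (1.44, adjusted p = 9.9e-08) and B16F10 (1.35, adjusted p = 1.6e-06), with 0.26 in MelanA (adjusted p = 0.27). Gdf15, a stress-induced hormone, gave 1.07 in MelanA (adjusted p = 0.045, lost in 7 of 19 alternatives) and rose in B16F0 (2.42, adjusted p = 2.3e-18) and B16F10 (1.49, adjusted p = 1.4e-17).

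The genes most like each of the 10 across the 12 libraries were found by Pearson's r of log2 CPM among 11728 genes of at least 1 CPM on average. These values describe 12 points that share lines and libraries, and no test is given. Ccl2 was most like Def6 (r = 0.9918), and Ccl7 most like Rhov (0.9855). Ccl5 was most like Foxo1 (0.9928) and then Ifit1 (0.9869), an interferon-induced gene. For Cxcl10 the closest were Adamts4 (0.971) and Nfkb1 (0.9618). Cx3cl1 was most like Farp1 (0.9962), Csf1 most like Hspg2 (0.9484), Il34 most like Grb14 (0.9564), Il6 most like Cep85l (0.9721) and Lif most like Mat2b (0.9862). Cxcl16, the gene with the fewest counts over the 12 libraries, had the lowest best value (Hgh1, 0.879).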

How the data were processed

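RNA was extracted from cultures of 3 mouse lines, and libraries were made by standard Illumina protocols. The authors deposited whole-number read counts per gene, without normalization, for 12 libraries, with gene coordinates and lengths; the files' build is GRCm38 (mm10), and 33821 of the 34513 identifiers had the same coordinates in GENCODE M21. The submitters' processing notes name cutadapt, STAR, DESeq2 and mm10 without roles or versions; the counting program and its use of strand are not given in the sources used here. Groups and replicate numbers came from the sample titles. The members, gene lists and tests were chosen with earlier results of these data known.

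Counts were fitted in R 4.3.3 with edgeR 4.0.16: TMM scaling, filterByExpr (18338 genes kept, including all 10), one quasi-likelihood fit of 6 groups (6 residual degrees of freedom) and Benjamini-Hochberg adjustment over all genes kept, at 0.05. The standard error is the log2 change over the square root of F, with a prior count of 0.125 in the log2 change. An exact permutation test of 2 against 2 libraries cannot go under 0.333, so none is given. RPKM used the deposited gene lengths. Ratios against groups at or under 3 counts per library, with at least 1 count in the group, carry exact 95% intervals. These intervals and the floor of 3 counts cover counting error only. Replicates differed by more than sampling noise (chi-square per gene 2.82 to 4.97). The deviations of libraries sharing a number within a line were not correlated (r = -0.0276, -0.0112 and -0.00892), so the numbers were not treated as pairs. The genes named were the 10, their receptors and shedding proteases that passed the filter, for each list the 3 with the largest passing change at a mean of at least 1 CPM, and the 2 genes most like each. A receptor gene of the list is not reported here. The fit was tested on simulated data of 17192 genes. Each gene had 1 mean over the 6 groups apart from the changes put in, so the simulation held no differences between untreated lines. Of genes changed by 1 on the log2 scale, 73.1% were called in the right direction in the groups standing for MelanA, 71% for B16F0 and 71% for B16F10. Of those changed by 2, 92.6%, 86.2% and 91.5% were. DESeq2 1.42.0, other scalings and filters, a replicate block and each library left out in turn were alternatives. Figures used Python 3.11.15 and matplotlib 3.10.9.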

Additional observations from a re-analysis of the deposited data

Results flagged for a closer look

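The response to SX-682 differed between lines by a test of the difference itself (edgeR's quasi-likelihood F-test, Benjamini-Hochberg adjusted) for the following genes. Over the 3 lines the log2 change of Ccl5 spanned 0.40 (adjusted p = 0.021), all values being positive. The log2 change of Cxcl10 spanned 0.82 (adjusted p = 1.1e-11), from -0.53 in MelanA to 0.28 in B16F0. Cx3cl1 spanned 0.95 (adjusted p = 1.7e-09), from -0.23 in MelanA to 0.72 in B16F0. Csf1 spanned 1.47 (adjusted p = 7.9e-20), from -0.17 in MelanA to 1.30 in B16F0. Lif spanned 0.77 (adjusted p = 0.00044), from -0.48 in B16F0 to 0.29 in B16F10.

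The mean change of the B16 lines exceeded that of MelanA by 0.54 for Cxcl10 (adjusted p = 8.9e-10), 0.74 for Cx3cl1 (adjusted p = 4.6e-10) and 1.10 for Csf1 (adjusted p = 4.5e-19). Over all genes tested, 47.4% differed among the 3 lines and 35.8% between the B16 lines and MelanA, so such a difference was common in these libraries.

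Among the other chemokines, Ccl20, chosen after its values were seen, had log2 changes that spanned 3.97 over the lines (adjusted p = 3.7e-05), and its mean B16 change exceeded its MelanA change by 3.77 (adjusted p = 1.2e-05).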

How the results depend on the processing

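Over all alternatives no called difference of the 10 genes that was given a fold, ratio or bound changed direction (Ccl7 in B16F0 with SX-682 and between untreated B16F0 and MelanA, at the floor, is not included), and among values for single genes 1415 kept their side of the threshold, 35 lost it and 14 gained it. Many of these could hardly change side. For a comparison of 2 groups, most of the libraries left out in turn lay outside both groups. A prior count of 2 moves the log2 value but not the p-value. The 1415 is therefore not a count of independent checks. With at least 10 counts required in every library only 5 of the genes (Ccl5, Cxcl10, Cx3cl1, Csf1 and Lif) were tested, and 4 passed for SX-682 in MelanA and 5 in each of the 3 comparisons of untreated lines. At an adjusted p of 0.01, 4 passed in MelanA. With an absolute log2 change of at least 1 also required, 1 passed in MelanA (Ccl7), 2 in B16F0 (Ccl7 and Csf1) and 1 in B16F10 (Cxcl16). Of these changes with SX-682, only that of Csf1 did not rest on a group at the floor. At that setting 4 passed between untreated B16F10 and B16F0, and 1 in each test of a difference in response (among the 3 lines, and B16 against MelanA). With each library left out in turn, the number passing was 3 to 7 in MelanA, 4 to 7 in B16F0 and 5 to 7 in B16F10; it was 7 to 9 between B16F0 and MelanA, 9 in every case between B16F10 and MelanA, 6 to 8 between B16F10 and B16F0, 4 to 6 among the 3 lines and 3 to 4 for B16 against MelanA. The 3 in MelanA came without SX-682 replicate 2. The causes were not tested. With 2 libraries per group, a lone library was assumed to vary like the other groups. Scaled by library totals, chosen after the data were seen, the median of all genes moved from -0.06 to -0.15 for B16F0 against MelanA and from -0.10 to -0.29 for B16F10 against MelanA, with no change of direction for those differences of the 10 genes.

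When replicate numbers entered the fit as a block, 7 of the 10 genes passed in each line with SX-682, 8 between untreated B16F0 and MelanA, 9 between B16F10 and MelanA and 6 between B16F10 and B16F0, 6 among the 3 lines and 3 for B16 against MelanA; the labels give no source for a pairing, and the numbers share no deviation.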

Other observations

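Ccl20, which encodes the ligand of CCR6 on dendritic cells and lymphocytes, was chosen after its values were seen, from the list of other chemokines. It had 90 and 105 counts in untreated MelanA and 18 and 24 with SX-682, a fall with no overlap (log2 change -1.93 ± 0.45 SE, edgeR adjusted p = 6e-04). In B16F0 the counts were 15 and 2 untreated and 28 and 15 with SX-682 (1.64 ± 0.57, adjusted p = 0.017), and in B16F10 they were 7 and 3 untreated and 19 and 21 with SX-682 (2.04 ± 0.63, adjusted p = 0.0076). The MelanA call held in all 19 alternatives. The B16F0 call was lost without control replicate 2 or SX-682 replicate 1 (adjusted p up to 0.23) and the B16F10 call without control replicate 2 (adjusted p = 0.10).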
